A study of Arabidopsis thaliana with 48 samples.

Results

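The genes described here are 10 nuclear genes of carbon fixation in Arabidopsis thaliana, out of 28496 gene identifiers counted in each library. They are the 4 genes for the small subunit of Rubisco, namely RBCS1A (AT1G67090), RBCS1B (AT5G38430), RBCS2B (AT5G38420) and RBCS3B (AT5G38410), the gene for Rubisco activase, RCA (AT2G39730), and 5 genes for enzymes of the Calvin cycle, PRK (AT1G32060), SBPASE (AT3G55800), CFBP1 (AT3G54050), GAPA (AT3G26650) and GAPB (AT1G42970). They were chosen by identifier with their responses to induction already seen, in particular that RBCS1B had been lower after induction in all 8 lines. Their induction values are therefore given as a description. Where the text counts those that passed the threshold of the fit across all genes, the count describes the choice of genes and is no independent test of it.

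The study measured polyadenylated RNA by QuantSeq, which counts reads at the 3' ends of transcripts, in whole seedlings 10 days old. Each of 8 transgenic lines carries an estradiol-inducible transcription factor of the class III homeodomain leucine zipper (HD-ZIPIII) family, and the series set out to find the genes regulated after their induction. Seedlings of the T2 generation were treated on agarose plates at 9 days with a spray of 1% DMSO and the wetting agent Silwet L-77 at 0.005%, either with 50 µM β-estradiol (induced) or without it (mock), and were collected 24 h later. There were 3 biological replicates in each of 16 groups, 48 libraries in all.

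The constructs are named as in the sample labels. CNA and PHB are the Arabidopsis factors CORONA and PHABULOSA, CNA-SDdelta and PHB-SDdelta are forms of them labelled SDdelta, and the chimeras built on CNA are CNA-PpHOX32, CNA-SmHOX32, CNA-KnC3HDZ and CNA-KnC3HDZ_8m. The labels give neither the promoter of the inducible system, nor how many independent transformants a line holds, nor whether T2 seedlings without the construct were removed. Every induced and every mock group carries a construct, and no line without one was analysed here, so an effect of estradiol itself and an effect of the construct cannot be told apart.

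Rubisco joins CO2 to ribulose bisphosphate, and its small subunits are encoded by a family of nuclear genes while its large subunit is encoded in the chloroplast. Rubisco activase frees blocked active sites of the enzyme. In the Calvin cycle the product is then reduced by glyceraldehyde 3-phosphate dehydrogenase (GAPA and GAPB), and ribulose bisphosphate is made again through steps that include fructose bisphosphatase (CFBP1), sedoheptulose bisphosphatase (SBPASE) and phosphoribulokinase (PRK). Several of these genes are among the most strongly expressed in green leaves and are known to respond to light.

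The RBCS genes are close copies, and their sequences bear on how far their counts can be kept apart. RBCS1A lies on chromosome 1, and RBCS3B, RBCS2B and RBCS1B lie next to one another on the minus strand of chromosome 5, at chr5:15376988-15378642, chr5:15380907-15382071 and chr5:15383167-15385320 of the TAIR10.1 reference. The 90 bases below are coding bases 15 to 104 of each copy, within its first coding exon and read 5′ to 3′ from the RefSeq annotation of TAIR10.1 on the minus strand, and capitals mark the 23 positions that the 4 copies do not all share. They are shown because they let the chromosome 5 copies be told apart by eye from RBCS1A and from each other. Among stretches of this length within 1 exon, this one was chosen for having the most differing positions. It is therefore not typical of the coding sequence, and it does not lie at the 3' ends that QuantSeq reads.
RBCS1A: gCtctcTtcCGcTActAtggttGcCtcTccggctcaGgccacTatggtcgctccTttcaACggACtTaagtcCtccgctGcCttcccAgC
RBCS1B: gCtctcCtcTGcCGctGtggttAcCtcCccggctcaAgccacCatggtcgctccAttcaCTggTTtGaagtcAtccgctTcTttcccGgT
RBCS2B: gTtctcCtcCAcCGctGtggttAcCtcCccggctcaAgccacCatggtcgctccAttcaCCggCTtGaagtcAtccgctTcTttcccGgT
RBCS3B: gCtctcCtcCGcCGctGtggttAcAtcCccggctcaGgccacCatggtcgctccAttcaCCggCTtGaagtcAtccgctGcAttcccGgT
In this stretch, at chr1:25049146-25049235 for RBCS1A and chr5:15385052-15385141 for RBCS1B, these 2 copies differed at 20 of 90 bases. RBCS1B and RBCS2B differed at 5, RBCS2B and RBCS3B at 6, and RBCS1B and RBCS3B at 7. Over the whole coding sequence RBCS1A was 90.1% to 90.5% identical to the chromosome 5 copies, which were 96.7% to 97.3% identical to each other.

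The 3' ends, which QuantSeq reads, were less alike. Of the 451 stretches of 50 bases in the last 500 exonic bases, 100% occurred at a single place in the genome for RBCS1A, 80.5% for RBCS2B, 72.5% for RBCS3B and 61.0% for RBCS1B. A read from the remaining stretches matches more than 1 place, so counts of the chromosome 5 copies are less certain than those of RBCS1A. The other caution is overlap with a neighbouring gene, of 3 bases for RCA, 33 for PRK and 167 for CFBP1 on the opposite strand, and of 13 for GAPA on the same strand. Whether reads were assigned by strand is not given in the sources used here.

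All 10 genes had enough counts to be tested, among 18909 genes in all. Counts per library ran from 1808765 to 37222617, with a median of 5944946.5, and levels are given as counts scaled to a total of 1000000 (CPM) after TMM scaling, as mean ± SD over 3 libraries unless each library is listed. The summed count of the 4 RBCS genes was at least 4976 in a library and at most 268660. As a check of the labels, the CNA transcript was higher in the induced libraries of the CNA line by 1.89 on the log2 scale and the PHB transcript by 3.65 in those of PHB and 2.06 in those of PHB-SDdelta. CNA was higher by 1.3 to 1.56 in the 4 chimeras, and in CNA-SDdelta by 0.99, which did not pass the test (adjusted p = 0.216, edgeR quasi-likelihood).

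After induction the 10 genes were lower in nearly every line. Of the 80 combinations of gene and line, 79 had a negative log2 fold change and 73 passed an adjusted p of 0.05 towards lower values in edgeR's quasi-likelihood test, while 0 passed it towards higher values. Over all tested genes, 3.68% of such combinations passed it towards lower values. In 78 of the 80 every induced library lay under every mock library, against 12.2% over all genes. RBCS1B, RBCS1A, RCA, SBPASE and GAPB passed in all 8 lines, as did 0.439% of all genes. PRK, CFBP1 and GAPA passed in 7, and RBCS2B and RBCS3B in 6. Because these contrasts chose the genes, the counts say what was selected and nothing more. In whole seedlings, fewer cells of a type and less RNA per cell cannot be told apart.

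**Figure D1:**
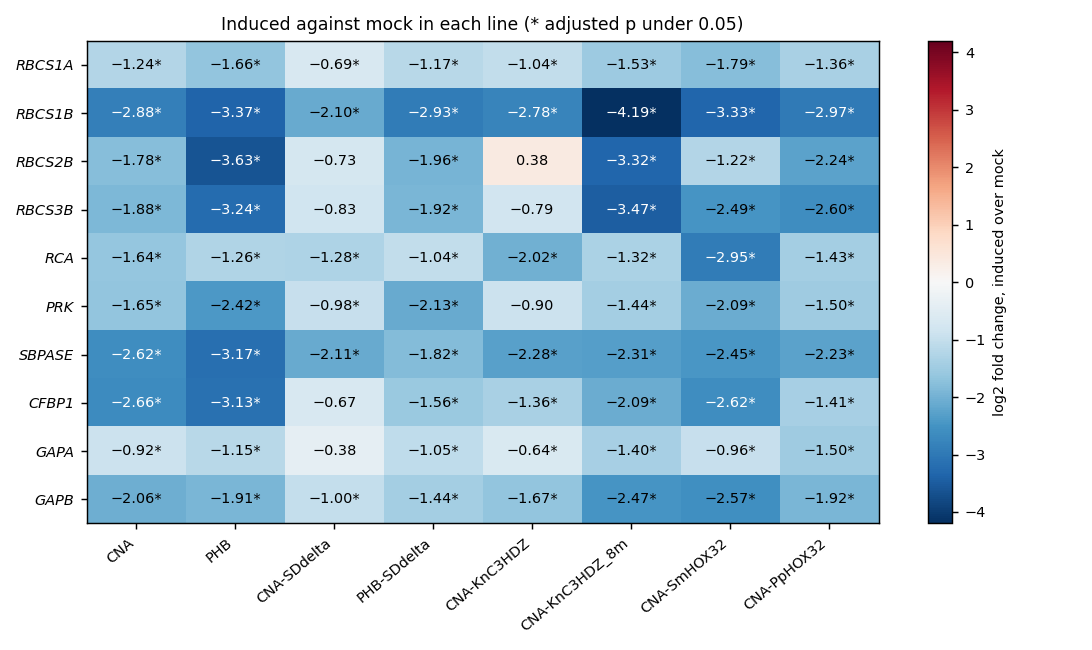
Log2 fold change, induced over mock, of each of the 10 genes (rows) in each of the 8 lines (columns), with a star where the adjusted p was under 0.05. All cells are negative except RBCS2B in CNA-KnC3HDZ, and the lowest value is RBCS1B in CNA-KnC3HDZ_8m at −4.19.

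By line, 10 of the 10 genes passed in CNA, where 3.96% of all genes were called lower, and 10 in PHB, where 4.99% were. In PHB-SDdelta 10 passed (3.44% of all genes), in CNA-KnC3HDZ_8m 10 (3.51%), in CNA-SmHOX32 10 (5.38%) and in CNA-PpHOX32 10 (3.92%). Fewer passed in CNA-SDdelta, with 6 (2.09%), and in CNA-KnC3HDZ, with 7 (2.11%). The median log2 fold change of the 10 genes was −2.77 in PHB, −2.47 in CNA-SmHOX32, −2.2 in CNA-KnC3HDZ_8m, −1.83 in CNA, −1.71 in CNA-PpHOX32, −1.69 in PHB-SDdelta, −1.20 in CNA-KnC3HDZ and −0.90 in CNA-SDdelta. The median over all tested genes stayed between −0.08 and 0.08 in these inductions. Of the 73 calls, 8 were lost in at least 1 alternative fit: RBCS1A and PRK in CNA-SDdelta, RBCS2B and SBPASE in CNA-SmHOX32, SBPASE in PHB-SDdelta, CFBP1 and GAPA in CNA-KnC3HDZ, and CFBP1 in CNA-PpHOX32. Summed over the 10 genes, the level was 3445 ± 305 CPM in induced against 10928 ± 1105 CPM in mock PHB seedlings, and 10864 ± 963 CPM in induced against 18289 ± 553 CPM in mock CNA-SDdelta seedlings.

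RBCS1A, the most abundant copy by 3'-end counts, carried most of the small-subunit RNA in every library. It had 3433, 5357 and 5681 CPM in induced CNA libraries, against 9755, 11756 and 12652 CPM in mock CNA libraries. In PHB it had 1889, 1964 and 2373 CPM in induced libraries, against 5672, 6673 and 7334 CPM in mock libraries. The groups did not overlap in these lines or in the other 6. Its log2 fold change ran from −1.79 in CNA-SmHOX32 to −0.69 in CNA-SDdelta, a smaller range than that of the other copies. In CNA-SDdelta the call was lost when any of 5 of the 6 libraries was left out (all but induced replicate 1).

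RBCS1B, which lies at an end of the chromosome 5 cluster, had the lowest fold change of the 4 copies in 7 of the 8 lines, all but PHB. In CNA-KnC3HDZ_8m it had 24.3, 27.3 and 31.9 CPM in induced libraries, against 411, 546 and 570 CPM in mock libraries, a log2 fold change of −4.19 ± 0.38 (SE), or 18.2-fold lower. In CNA it had 73.7, 89.6 and 95.5 CPM in induced libraries, against 505, 668 and 724 CPM in mock libraries, a log2 fold change of −2.88 ± 0.35. The 2 groups were far apart in both lines.

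In PHB it had 18.0, 44.0 and 52.4 CPM in induced libraries, against 346, 375 and 457 CPM in mock libraries. In CNA-SmHOX32 it had 18.4, 42.4 and 64.0 CPM in induced libraries, against 289, 317 and 650 CPM in mock libraries. In CNA-PpHOX32 it had 31.0, 33.6 and 95 CPM in induced libraries, against 366, 427 and 481 CPM in mock libraries. Again no library of an induced group reached its mock group, and the log2 fold changes were −3.37, −3.33 and −2.97 in these 3 lines. The highest of the induced CNA-PpHOX32 libraries was replicate 1, without which the last value was −3.72. In PHB-SDdelta it had 40.3, 71.9 and 104 CPM in induced libraries, against 478, 533 and 633 CPM in mock libraries (log2 fold change −2.93). In CNA-KnC3HDZ it had 54.5, 69.2 and 114 CPM in induced libraries, against 527, 528 and 585 CPM in mock libraries (−2.78). In CNA-SDdelta it had 125, 132 and 197 CPM in induced libraries, against 594, 665 and 688 CPM in mock libraries (−2.10). This last was the smallest difference of the 8, and still without overlap. Over the lines, the group means of RBCS1B ran from 27.8 to 151 CPM in induced and from 393 to 649 CPM in mock seedlings.

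RBCS2B, the middle copy of the cluster, had the widest range of fold changes. In PHB it had 4.06, 24.0 and 35.6 CPM in induced libraries, against 237, 253 and 301 CPM in mock libraries, a log2 fold change of −3.63, or −4.40 without induced replicate 1. In CNA-KnC3HDZ_8m it had 49.5, 53.8 and 78.5 CPM in induced libraries, against 560, 594 and 647 CPM in mock libraries, a log2 fold change of −3.32. In CNA-KnC3HDZ it had 181, 257 and 412 CPM in induced libraries, against 197, 214 and 243 CPM in mock libraries. There the groups overlapped, the log2 fold change was 0.38, and it was the single positive value among the 80. The highest of these libraries, induced replicate 2, is also the most deeply sequenced of the 48, and without it the value was 0.0041.

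RBCS3B, the third chromosome 5 copy, had its smallest difference in CNA-KnC3HDZ, as RBCS2B did, and its lowest log2 fold change, −3.47, in CNA-KnC3HDZ_8m. In CNA-KnC3HDZ_8m it had 70.6, 124 and 134 CPM in induced libraries, against 1092, 1171 and 1371 CPM in mock libraries, its highest level in any group. In CNA-KnC3HDZ it had 193, 211 and 549 CPM in induced libraries, against 508, 541 and 605 CPM in mock libraries. The overlap there came from induced replicate 2 alone, without which its log2 fold change was −1.45 in place of −0.79 and passed the threshold. RBCS1B, RBCS2B and RBCS3B were also summed into 1 feature, so that the copy to which a counted read was assigned no longer mattered. The log2 fold change of the sum ran from −3.55 in CNA-KnC3HDZ_8m to −0.95 in CNA-KnC3HDZ. Any reads left uncounted because they matched several places are missing from the sum as well.

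**Figure D2:**
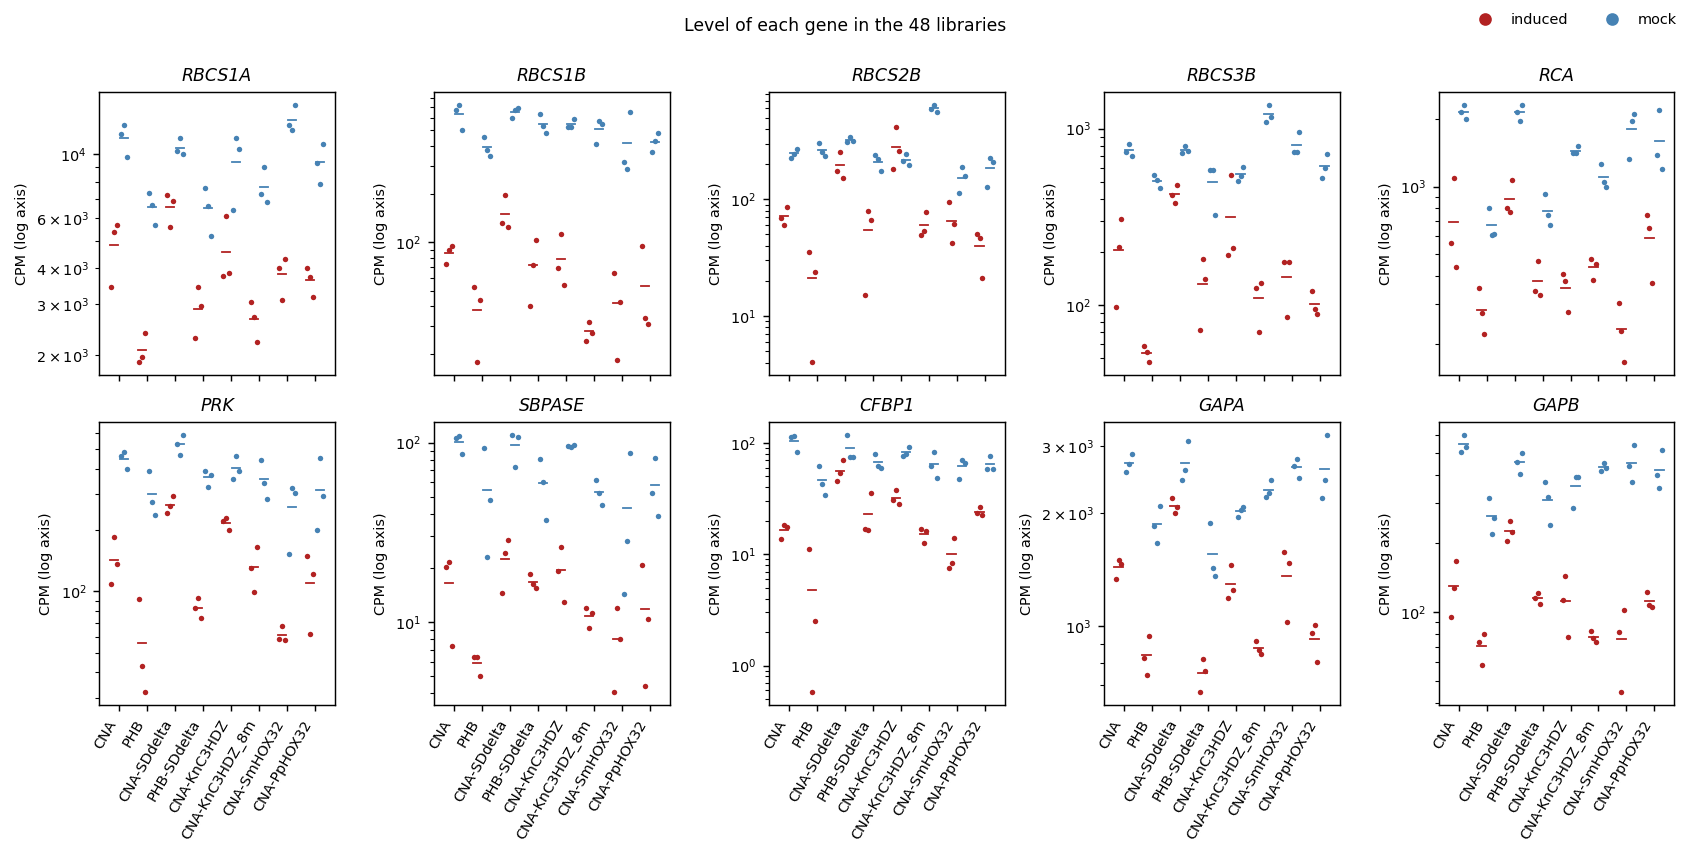
Level of each of the 10 genes in CPM on a log axis, with a panel per gene, the 8 lines along the axis, 1 point per library and a short bar at the mean of 3 libraries, induced (red) left of mock (blue). The groups overlap only for RBCS2B and RBCS3B in CNA-KnC3HDZ.

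The make-up of the small-subunit pool also differed. A 3'-end count does not grow with transcript length, so the 4 copies were compared by their share of the summed RBCS counts. How reads that match several places were counted is not given. The size of each share carries that uncertainty, mostly for the chromosome 5 copies. RBCS1A held 93.1% ± 0.85 of them in induced and 87.4% ± 0.51 in mock CNA libraries (SD, n = 3 each), and 92.9% ± 2.32 in induced and 76.7% ± 1.60 in mock CNA-KnC3HDZ_8m libraries. Its share was higher in induced libraries without overlap in 7 lines, and overlapped in CNA-KnC3HDZ, at 87.5% ± 2.26 in induced and 87.2% ± 3.19 in mock libraries.

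RBCS1B held a smaller share of the summed RBCS counts, most of which were RBCS1A, after induction in all 8 lines. As a share of the chromosome 5 copies alone, its induced and mock libraries overlapped in PHB, CNA-KnC3HDZ_8m and CNA-PpHOX32. On the summed counts of all RBCS copies there was no overlap of libraries in any line. Its share was 0.99% ± 0.21 in induced and 5.11% ± 0.83 in mock CNA-KnC3HDZ_8m libraries, and 2.25% ± 0.82 in induced and 7.14% ± 0.55 in mock PHB-SDdelta libraries, its highest mock share. The smallest difference of shares was in CNA-SmHOX32, at 0.99% ± 0.46 in induced and 2.79% ± 0.97 in mock libraries. For a single library the counting error was small: 106 of 18823 RBCS counts in induced CNA-SmHOX32 replicate 2 gave 0.563% (exact 95% binomial interval 0.461% to 0.681%, counting error only).

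The shares of the neighbouring copies did not follow a single direction. RBCS2B held 5.31% ± 0.87 in induced and 2.13% ± 0.60 in mock CNA-KnC3HDZ libraries, without overlap, and 2.2% ± 0.88 in induced and 6.03% ± 0.42 in mock CNA-KnC3HDZ_8m libraries, also without overlap. Its share was lower without overlap in 4 lines, higher without overlap in 1 and overlapped in 3. RBCS3B held 3.92% ± 1.49 in induced and 12.1% ± 0.68 in mock CNA-KnC3HDZ_8m libraries, and its share overlapped in CNA-SDdelta and CNA-KnC3HDZ. The summed RBCS level was 2188 ± 260 CPM in induced and 7723 ± 963 CPM in mock PHB libraries, and 4066 ± 707 CPM in induced and 14574 ± 1815 CPM in mock CNA-SmHOX32 libraries.

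**Figure D3:**
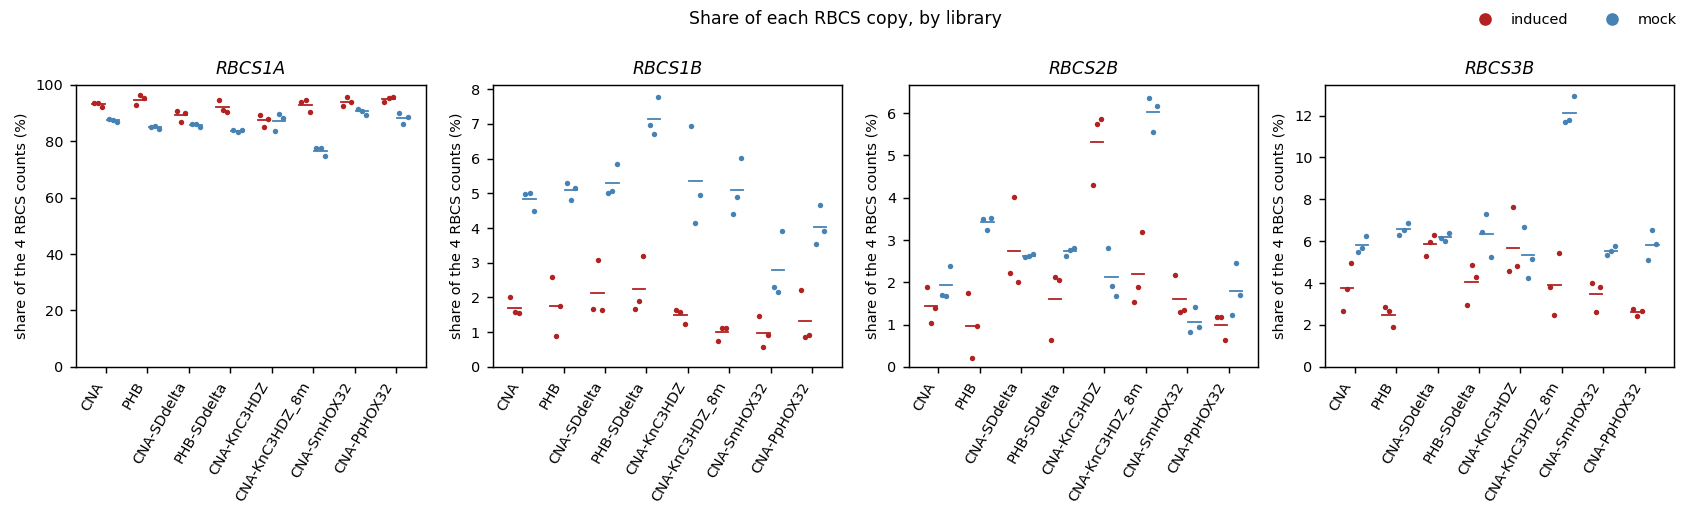
Share of each RBCS copy among the summed counts of the 4 copies, in percent, with a panel per copy (each with its own axis from 0), 1 point per library and a short bar at the mean, induced (red) left of mock (blue). RBCS1B is lower in the induced libraries of all 8 lines, and RBCS2B is higher in those of CNA-KnC3HDZ.

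The 250 bases before the annotated starts of RBCS1B and RBCS2B are printed here because these neighbours differed most in CNA-KnC3HDZ. They lie at chr5:15385321-15385570 and chr5:15382072-15382321 of TAIR10.1, minus strand, and are given 5′ to 3′, ending at the base before the start. Capitals mark matches on either strand to 2 motifs known from light-responsive promoters, the G-box (CACGTG) and the I-box (GATAAG).
RBCS1B: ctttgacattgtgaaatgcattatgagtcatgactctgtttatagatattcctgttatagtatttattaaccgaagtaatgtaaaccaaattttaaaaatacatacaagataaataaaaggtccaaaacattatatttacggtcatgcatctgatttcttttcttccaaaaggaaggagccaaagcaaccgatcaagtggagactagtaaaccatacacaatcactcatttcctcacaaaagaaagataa
RBCS2B: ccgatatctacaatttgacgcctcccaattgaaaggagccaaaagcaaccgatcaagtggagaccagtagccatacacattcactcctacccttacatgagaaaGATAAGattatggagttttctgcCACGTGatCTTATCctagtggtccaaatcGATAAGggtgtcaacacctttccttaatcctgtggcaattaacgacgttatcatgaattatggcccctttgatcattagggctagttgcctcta
RBCS2B held 1 G-box, with its first base 123 bases before the start, and 3 I-boxes at 146, 115 and 94 bases, none of which overlap the G-box. RBCS1B held no match to either in its own 250 bases. That window ends in gataa at the annotated start, and letters past the start were not searched. A stretch shared by both windows stands late in that of RBCS1B and early in that of RBCS2B. The 2 windows therefore do not cover the same part of the promoters, and the lack of a match in RBCS1B holds for its window only. Across the 10 genes a G-box was found in 3 (RBCS2B, PRK and CFBP1), against 6.49% of the 27443 promoters of the same length, and an I-box in 3 (RBCS2B, RCA and CFBP1), against 12.29%. The palindromic element known as a binding sequence of HD-ZIPIII proteins was found in 0 of the 10 and in 14 of all promoters (0.05%). The annotated start lies at a different distance from the coding sequence in each RBCS copy, nearest in RBCS2B and farthest in RBCS1A. The lack of a match in RBCS1A and RBCS3B therefore also holds for their windows only. The windows of SBPASE, GAPA and GAPB overlap an annotated neighbouring gene. All of these are matches of letters in a short window and carry no information on binding.

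RCA encodes the activase. It had 166, 227 and 305 CPM in induced CNA-SmHOX32 libraries, against 1328, 1968 and 2098 CPM in mock libraries, its lowest log2 fold change at −2.95. In PHB-SDdelta it had 330, 341 and 465 CPM in induced libraries, against 672, 748 and 923.1 CPM in mock libraries, its smallest difference at −1.04. The induced libraries lay under all mock libraries in all 8 lines.

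Among the enzymes of regeneration, SBPASE and CFBP1 had the lower levels. SBPASE, which is specific to this cycle in plants, had 5.0, 6.38 and 6.41 CPM in induced PHB libraries, against 23.2, 47.6 and 93.0 CPM in mock libraries. Its log2 fold changes lay between −3.17 in PHB (−2.54 without mock replicate 1) and −1.82 in PHB-SDdelta, and the value of −2.23 in CNA-PpHOX32 was −2.93 without induced replicate 1. The spread within mock groups was wide in CNA-SmHOX32, where it had 4.06, 8.04 and 12.0 CPM in induced libraries and 14.3, 28.2 and 87.7 CPM in mock libraries. The log2 fold change there was −2.45, and −1.39 without mock replicate 3. CFBP1, the chloroplast fructose bisphosphatase, had 13.8, 17.4 and 18.2 CPM in induced CNA libraries, against 82.0, 112 and 115 CPM in mock libraries. In PHB it had 0.58, 2.5 and 11.2 CPM in induced libraries, against 33.8, 42.4 and 62.6 CPM in mock libraries. The lowest of these induced libraries held 3 counts of CFBP1 and the highest, replicate 1, held 89. Its log2 fold change was −2.66 in CNA, −3.13 in PHB (−5.23 without induced replicate 1) and −0.67 in CNA-SDdelta, where it did not pass.

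PRK, which makes the substrate of Rubisco, had 32.0, 42.9 and 91.7 CPM in induced PHB libraries, against 239, 276 and 392 CPM in mock libraries, a log2 fold change of −2.42. In CNA-KnC3HDZ it had 201, 221 and 228 CPM in induced libraries, against 355, 391 and 466 CPM in mock libraries. These groups did not overlap, and the log2 fold change of −0.90 did not pass in the fit used here but passed in all 7 alternative settings that kept every library of the line, and in 0 of the 6 fits with a library left out.

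GAPA and GAPB form the dehydrogenase that uses NADPH. GAPA had the smallest median log2 fold change of the 10 genes over the lines, at −1.0, and in CNA it had 1338, 1459 and 1503 CPM in induced libraries, against 2567, 2687 and 2867 CPM in mock libraries. GAPB had 95.5, 128 and 167 CPM in induced CNA libraries, against 501, 530 and 599 CPM in mock libraries, and its median over the lines was −1.91. The ratio of GAPA to GAPB counts, as a geometric mean, was higher in induced than in mock libraries of every line. It was 18.7 in induced and 5.94 in mock CNA-SmHOX32 libraries, 11.3 in induced and 4.99 in mock CNA libraries, and 6.53 in induced and 5.03 in mock PHB-SDdelta libraries.

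Levels were also tested between the mock seedlings of different lines. These contrasts were not used to choose the genes, but the mock libraries were part of the induction values that were. The tests are therefore not independent of the choice. These comparisons take the CNA-based lines against CNA, CNA-KnC3HDZ_8m against CNA-KnC3HDZ, PHB against CNA and PHB-SDdelta against PHB, each on the 3 mock libraries of a line. Mock PHB seedlings had less RNA of 4 of the 10 genes than mock CNA seedlings, where 4.08% of all genes differed in either direction. RCA had 606, 618 and 803 CPM in mock PHB libraries, against 2002, 2142 and 2317 CPM in mock CNA libraries. Its log2 fold change was −1.67 ± 0.25 (SE, adjusted p = 1.68e-06 in edgeR), or 3.19-fold lower in mock PHB, with no overlap.

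GAPB was lower in mock PHB as well, at 219, 257 and 316 CPM in mock PHB and 501, 530 and 599 CPM in mock CNA libraries (log2 fold change −1.04 ± 0.22, adjusted p = 0.00116 in edgeR). RBCS1A differed by −0.80 ± 0.20 (adjusted p = 0.00818) and GAPA by −0.54 ± 0.16 (adjusted p = 0.0396), again with lower values in mock PHB. The calls of RCA and GAPB were kept when any of the 6 libraries was left out. That of RBCS1A was lost without mock CNA replicate 2 or mock PHB replicate 3 (adjusted p up to 0.0926), and that of GAPA was kept in 1 of the 6 cases, so that 2 genes were left without mock CNA replicate 2. The other 6 genes did not pass, with adjusted p of 0.0647 for CFBP1 and 0.338 or more for the rest, although 7 of the 10 were called when the fit held the compared libraries alone.

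Mock CNA-KnC3HDZ_8m seedlings had more RNA of 2 chromosome 5 copies than mock CNA-KnC3HDZ seedlings, where 2.72% of all genes differed. RBCS2B had 560, 594 and 647 CPM in mock CNA-KnC3HDZ_8m and 197, 214 and 243 CPM in mock CNA-KnC3HDZ libraries (log2 fold change 1.46 ± 0.37, adjusted p = 0.0127 in edgeR). RBCS3B was also higher, by 1.14 ± 0.29 (adjusted p = 0.0148). RBCS1B, the third copy of the cluster, had a log2 fold change of −0.10 ± 0.33 and overlapping libraries. Each of the 2 calls was kept in 3 of the 6 cases with a library left out. Both were lost without mock CNA-KnC3HDZ replicate 1 or mock CNA-KnC3HDZ_8m replicate 2 (adjusted p up to 0.10), that of RBCS3B without mock CNA-KnC3HDZ replicate 2, and that of RBCS2B without mock CNA-KnC3HDZ replicate 3.

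In the other 5 mock comparisons 0 of the 10 genes passed in edgeR, and 0 in DESeq2. In CNA-SDdelta against CNA, PHB-SDdelta against PHB and CNA-PpHOX32 against CNA, 0 of the 10 had an unadjusted p under 0.05 by either tool, and 0.0529%, 0.0582% and 1.76% of all genes were called. In CNA-KnC3HDZ against CNA and CNA-SmHOX32 against CNA, 3 of the 10 had an unadjusted p under 0.05 by either tool, and 0.138% and 8.68% of all genes were called. With the compared libraries alone in the fit, 4 passed in CNA-KnC3HDZ against CNA. The count for CNA-SmHOX32 was 3 with no low-count filter, 1 with thinned counts and 3 without its mock replicate 3, the library in which SBPASE and RBCS1B had their highest values of that group. The p-values measure the spread between the labelled biological replicates.

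**Figure D4:**
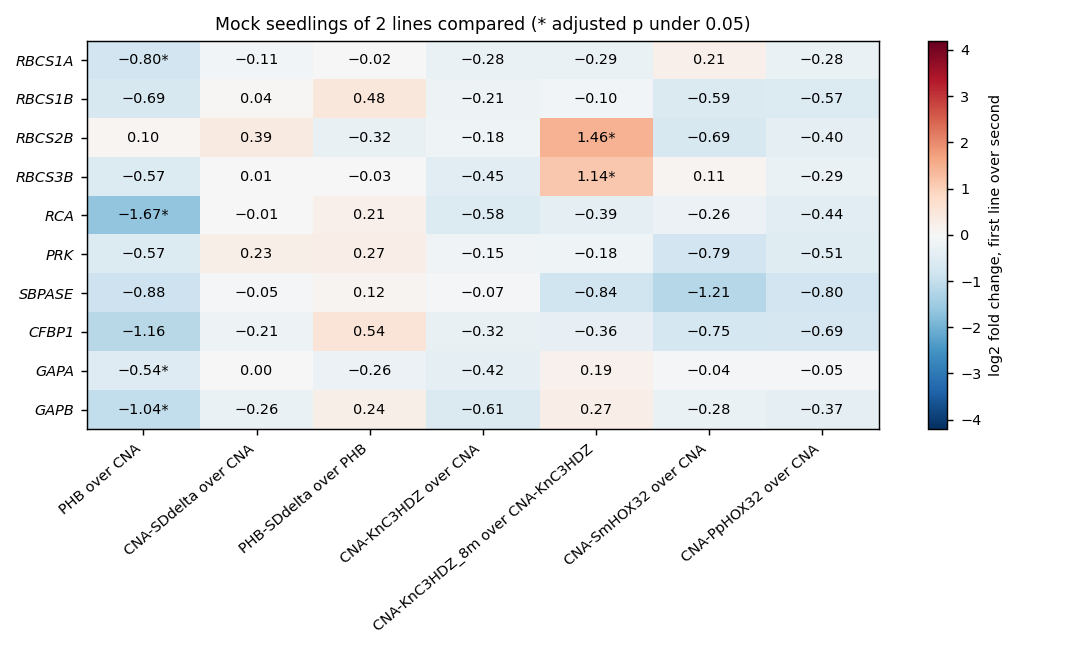
Log2 fold change of each of the 10 genes (rows) between the mock seedlings of 2 lines, first line over second (columns), with a star where the adjusted p was under 0.05. Stars stand at RBCS1A, RCA, GAPA and GAPB in PHB over CNA and at RBCS2B and RBCS3B in CNA-KnC3HDZ_8m over CNA-KnC3HDZ.

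Of the remaining Calvin cycle genes, 15 were listed by their place in the pathway. Across the 8 inductions 51 of their 120 combinations of gene and line passed towards lower values and 0 towards higher ones, against 3.68% and 3.22% of combinations over all genes. In each line 5 to 8 of the 15 fell, and the list's median log2 fold change lay between −0.86 in CNA and −0.30 in CNA-KnC3HDZ. The calls were not spread evenly: 4 genes fell in all 8 lines, 4 in 2 to 6 lines and 7 in none. The count of 6 in CNA-SDdelta was 3 without induced replicate 2 or 3 and 2 without mock replicate 3, and the count of 7 in CNA-KnC3HDZ_8m was 4 without induced replicate 1 or 3 or mock replicate 3 and 3 without mock replicate 1. With only the libraries of a line in the fit, 10 in place of 5 were called in PHB-SDdelta and 3 in place of 7 in CNA-SmHOX32. In CNA-SmHOX32, 1 gene (FBA3) passed towards higher values without mock replicate 1 and 2 (TKL2 and CP12-3) without mock replicate 3.

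FBA1 and FBA2, chloroplast aldolases, and GAPA2, a second gene for the A subunit of the dehydrogenase, were among those that fell in all 8 lines. FBA1 had 258 ± 92 CPM in induced and 1119 ± 104 CPM in mock CNA seedlings, and its log2 fold changes ran from −2.5 in CNA-KnC3HDZ to −1.37 in CNA-SDdelta. GAPA2 had 181 ± 21 CPM in induced and 781 ± 78 CPM in mock PHB seedlings, with log2 fold changes from −2.11 to −1.21. CP12-2, a small protein that binds PRK and the dehydrogenase, was the fourth, from −2.49 to −0.99. With a library left out, the calls of FBA2 in CNA-SDdelta and of CP12-2 in CNA-KnC3HDZ_8m were kept in 2 of 6 cases each, and that of CP12-2 in CNA-SDdelta in 4. The 7 genes called in no line include the other 2 CP12 genes, the third aldolase FBA3 and the triose phosphate isomerase TIM, named here after their values were seen.

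Whether the response of these 15 genes differed between lines was tested as an interaction for the same 7 pairs of lines. In 0 of 105 combinations did it pass in edgeR, where 1.52% did over all genes, and 14 had an unadjusted p under 0.05. With the replicate number as a block 1 passed, CP12-3 in CNA-SmHOX32 against CNA (adjusted p = 0.0479 in edgeR), and 1 passed without mock CNA-SmHOX32 replicate 3. DESeq2 called 0 as well, with 16 at an unadjusted p under 0.05. The corresponding differences were not tested for the 10 genes, since their responses chose them.

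Other photosynthetic genes were described by the same counts. Of 12 tested photorespiration genes, which recycle the product of Rubisco's reaction with oxygen, 76 of 96 combinations passed towards lower values and 1 towards higher, or 79.2% and 1.04%, against 3.68% and 3.22% over all genes. GOX1, HPR1, GLDT and GLDP1 fell in all 8 lines, with medians over the lines of −1.60, −1.38, −1.45 and −1.59. The call of GLDP1 in CNA-SDdelta was lost without induced replicate 3, and that of GLDT in CNA-KnC3HDZ without any 1 library but induced replicate 2. GOX1, a glycolate oxidase, has a close neighbouring copy, GOX2, with which it could share reads. The single higher call was GLYK, the glycerate kinase of the pathway, at 0.98 in CNA-KnC3HDZ (adjusted p = 0.00142 in edgeR).

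Light-harvesting genes encode the chlorophyll-binding antenna proteins. Of 13 such genes, 89 of 104 combinations passed towards lower values and 0 towards higher, or 85.6% and 0%, against 3.68% and 3.22% over all genes. The count was 2 of 13 in CNA-KnC3HDZ, where 2.11% of all genes were called lower, and 11 to 13 in the other lines, where 2.09% to 5.38% were. In CNA-SDdelta the count of 11 was 7 without induced replicate 2 or mock replicate 3. LHCB2.1 and LHCB2.2, which are close copies of each other, fell in all 8 lines, with medians of −2.0 and −2.44. LHCB1.1 fell in 7, with a median of −3.21, and had −0.99 in CNA-KnC3HDZ (adjusted p = 0.124). Its call in PHB-SDdelta was lost in DESeq2 and in 4 of the 6 cases with a library left out. LHCB6 fell in 7 lines, with a median of −2.15.

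Of 11 factors that help fold, assemble or maintain Rubisco, 10 of 88 combinations passed towards lower and 1 towards higher values, or 11.4% and 1.14%, against 3.68% and 3.22% over all genes. The single higher call is too few to read against the share over all genes. DESeq2 called 16 towards lower and 2 towards higher values. In CNA the count of 5 was 1 without induced replicate 3 or mock replicate 2. RBCX2, an assembly chaperone, fell in CNA-KnC3HDZ (−1.21) and CNA-SmHOX32 (−0.86, lost without induced replicate 2 or mock replicate 3), and its single higher call was in PHB-SDdelta (0.97). CBBY, a phosphatase that clears an inhibitor of Rubisco, had 1.05 ± 1.3 CPM in induced and 14.8 ± 6.11 CPM in mock CNA seedlings, and it fell there and in CNA-SmHOX32. CPN60B2, a chloroplast chaperonin, fell in the same lines and had 0.51 ± 0.45 CPM in induced and 15.4 ± 4.15 CPM in mock CNA seedlings. In CNA the call of CBBY was kept without induced replicate 1 or mock replicate 3 and lost without any other library, and that of CPN60B2 was lost without induced replicate 3. RAF2 fell in CNA (−0.65, lost without induced or mock replicate 2) and CNA-SDdelta (−0.80, lost without induced replicate 2).

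Among 5 regulators of photosynthetic genes, 19 of 40 combinations passed towards lower and 0 towards higher values, or 47.5% and 0%, against 3.68% and 3.22% over all genes. GLK2, a transcription factor known to promote chloroplast development, fell in 7 lines and had −0.47 in CNA-SDdelta (adjusted p = 0.323). It had 54.4 ± 4.34 CPM in induced and 163 ± 24 CPM in mock PHB seedlings. CGA1 and GNC, GATA factors of greening, fell in 4 lines each and HY5, a light-signalling factor, in 3. GLK1, the remaining regulator, fell in 1 line, with a median of −0.54, and is named here after its values were seen. With a library left out, the call of CGA1 in CNA-KnC3HDZ was lost in all 6 cases, and that of CGA1 in CNA-KnC3HDZ_8m and of GNC in PHB-SDdelta in 5 of 6. In CNA-PpHOX32 the count of 3 regulators was 1 without induced replicate 3.

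**Figure D5:**
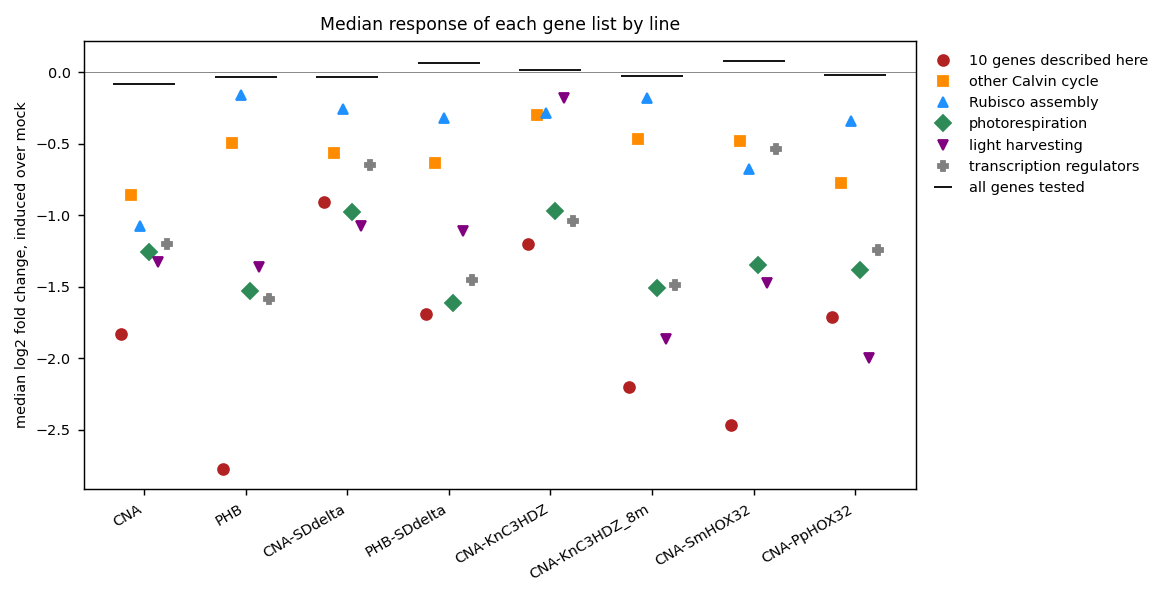
Median log2 fold change, induced over mock, of each gene list in each line (symbols), with the median over all tested genes as a black bar. The 10 genes described here lie between −2.77 in PHB and −0.90 in CNA-SDdelta, and the light-harvesting list lies at −0.18 in CNA-KnC3HDZ.

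Across the 48 libraries the 10 genes varied together, which groups of induced and mock libraries would give in any case. Pearson's r of log2 CPM between pairs of them ran from 0.616 to 0.953 over 45 pairs, with a median of 0.839. Among 9406 genes with a mean of at least 10 CPM, those outside the 10 that were most like RBCS1A were FBA2 (r = 0.953), GGT1 (0.936) and FBA1 (0.931). Most like RBCS1B were NPQ4 (0.970), GAPA2 (0.940) and CA2 (0.934), and most like PRK were AT4G15545 (0.928), ALDH11A3 (0.925) and PSAD-1 (0.922). NPQ4 is known as the PsbS protein of photoprotection and CA2 as a carbonic anhydrase. These libraries share lines, treatments and depth, so the values are descriptions.

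Markers of other cells moved with induction in some lines. The summed level of 10 root markers was 14.4 to 25.7 CPM in induced and 82.3 to 170 CPM in mock PHB libraries, 27.7 to 42.1 CPM in induced and 117 to 191 CPM in mock CNA-KnC3HDZ_8m libraries, and 7.97 to 25.4 CPM in induced and 48.5 to 125 CPM in mock CNA-PpHOX32 libraries. It was 63.7 to 74.1 CPM in induced and 81.6 to 118 CPM in mock CNA-KnC3HDZ libraries, also without overlap, and overlapped in the other 4 lines. At least 7 of the 10 root markers had a count in every group, and NRT2.1 was at 0 in 43 of the 48 libraries. The 4 shoot epidermis markers summed to 42.5 to 99.9 CPM in induced and 164 to 181 CPM in mock PHB libraries, and 77.4 to 110 CPM in induced and 167 to 196 CPM in mock CNA-KnC3HDZ_8m libraries. They also lay apart in CNA-SDdelta, at 80.7 to 106 CPM in induced and 121 to 134 CPM in mock libraries, and overlapped in the other 5 lines. The 3 shoot meristem markers summed to 0.15 to 0.395 CPM in induced and 2.19 to 3.50 CPM in mock CNA libraries, to 0 to 2.61 CPM in induced and 3.92 to 11.7 CPM in mock CNA-SmHOX32 libraries, and to 0.409 to 1.06 CPM in induced and 1.11 to 3.83 CPM in mock CNA-SDdelta libraries, and overlapped in the other 5 lines. Of the shoot epidermis markers, SDD1 was at 0 in 33 of the 48 libraries and FAMA reached at most 15.6 CPM. Most of the epidermis sum therefore came from ATML1 and PDF1. The shoot meristem sums rest on few reads. WUS and CLV3 were at 0 in 37 and 25 of the 48 libraries, and 3 counts were 0.436 CPM or more in induced CNA libraries. Root and shoot markers were both detected in libraries labelled whole seedling. The part of these markers in the values of the 10 genes was not tested.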

How the data were processed

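The authors deposited 1 table per library of whole-number counts per gene identifier, made from QuantSeq 3' libraries of Trizol-extracted polyadenylated RNA, per the labels' protocols. The submitters' processing notes name Trimmomatic, STAR, featureCounts, DESeq2 and the build TAIR10, with no settings. How strand and molecular identifiers were handled is not given in the sources used here. Positions, names and sequences come from the RefSeq files of TAIR10.1, whose table held 28009 of the 28496 identifiers.

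Groups were taken from the titles, as line and treatment. Any 2 libraries of a group were compared by a chi-square test of their counts, whose value over its degrees of freedom was 9.67 to 52.8 in 48 pairs, so no library was counted as a repeat of another. The main tool was edgeR 4.0.16 under R 4.3.3, with filterByExpr, TMM, 1 mean per group over all 48 libraries, glmQLFit and glmQLFTest. Benjamini-Hochberg adjustment was made over 18909 genes within each of 22 comparisons (8 inductions, 7 pairs of mock groups, 7 interactions), with a threshold of 0.05. Standard errors were derived as the size of the log2 fold change over the square root of F, and are approximate. On simulated counts with 200 genes lower by 2 on the log2 scale in induced CNA, 154 were called in the CNA induction, with 4 unchanged genes, over 18909 genes. The 200 were drawn from well-counted genes and no other group differed, so this is no detection rate for all genes.

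The members and all gene lists were chosen with earlier results of these data known. All 10 members are named. Of every other list the 4 genes called in most inductions are named, with ties broken by the smaller median adjusted p. Genes named outside this rule are said to be so, or, for GOX2 and GLYK, were named for a close copy and for a single call after their values were seen. Alternatives were DESeq2 size factors in edgeR, DESeq2 1.42.0, a mean of at least 10 counts or no filter on low counts, counts thinned to the smallest library, the compared libraries only, a replicate block, and leaving out each library in turn. Intervals of shares are exact binomial ones at 95% and cover counting error only.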

Additional observations from a re-analysis of the deposited data

How the results depend on the processing

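No sign turned among the induction values of the 10 genes that passed, the RBCS1B shares and the calls in the other gene lists, under the alternatives run for each. For photorespiration, light harvesting, assembly and regulators these were added after the data were seen. Of the calls here, 33 of 51 of the remaining Calvin cycle genes, 66 of 77 in photorespiration, 80 of 89 in light harvesting, 3 of 11 in assembly and 11 of 19 in regulators passed in every alternative; the total of lower calls in assembly was 16 in DESeq2 (10 here). Of the 73 combinations of the 10 genes and the lines that passed, 65 also passed under each of the 7 settings that keep every library and in each fit with a library left out. Their total was 73 of 80 here and 74 to 77 under those settings, 74 of them in DESeq2. For the remaining Calvin cycle genes the total was 51 of 120, against 45 to 56.

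Some counts moved by more than 1.5 times. With only the compared libraries in the fit, the remaining Calvin cycle genes called were 10 in PHB-SDdelta (5 here, 9 in DESeq2) and 3 in CNA-SmHOX32 (7 here), and the members called between mock groups were 7 for PHB against CNA (4 here) and 4 for CNA-KnC3HDZ against CNA (0 here). For mock CNA-SmHOX32 against CNA the count was 3 with no low-count filter and 1 with thinned counts (0 here). Leaving out a library at a time, the remaining Calvin cycle genes called were 2 to 5 in CNA-SDdelta (6 here, lowest without mock replicate 3) and 3 to 5 in CNA-KnC3HDZ_8m (7 here, lowest without mock replicate 1). The members called were 2 to 4 for mock PHB against CNA, 0 to 2 for mock CNA-KnC3HDZ_8m against CNA-KnC3HDZ and 0 to 3 for mock CNA-SmHOX32 against CNA. Responses that differed between lines numbered 0 to 1. The cause of these moves was not tested, apart from the smaller number of libraries in the leave-one-out fits.

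As a share of the 3 chromosome 5 copies alone, RBCS1B differed between induced and mock libraries by −29.3 percentage points in CNA-KnC3HDZ, −18.1 in CNA-SDdelta, −15.3 in PHB-SDdelta, −13.5 in both CNA and CNA-SmHOX32, −9.07 in CNA-PpHOX32, −7.18 in CNA-KnC3HDZ_8m and −1.23 in PHB. By construction its share of a smaller total is larger. On this total induced and mock libraries overlapped in PHB, CNA-KnC3HDZ_8m and CNA-PpHOX32.

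Libraries of the same replicate number within a line did not deviate together, with correlations of −0.0253 to 0.0778 over 24 pairs and 0 over 0.1, so the number was not treated as a pairing. In 1 of the 8 lines every induced library correlated best with its own number. With the replicate block, 1 response differed between lines in place of 0 (CP12-3 in CNA-SmHOX32 against CNA, adjusted p = 0.0479 in edgeR). The members called in CNA-SDdelta were 6 under the block, as without it, and 75 of the 80 combinations passed.

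Depth limits the low members most. CFBP1 reached 0.58 CPM in induced PHB replicate 2, where 3 counts are 0.568 CPM without TMM scaling. SBPASE reached 4.06 CPM in induced CNA-SmHOX32 replicate 1, where 3 counts are 0.369 CPM. In the shallowest library, induced PHB replicate 3, they are 1.66 CPM.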
